A study of Mus musculus with 3 samples.

Results

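Glycolysis turns glucose into pyruvate, and Ldha can turn that pyruvate into lactate. The 10 genes described here are 9 enzymes of this route (Gpi1, Aldoa, Tpi1, Gapdh, Pgk1, Pgam1, Eno1, Pkm and Ldha) and Hif1a, the oxygen-regulated subunit of the transcription factor HIF-1. They were chosen by name, and all 10 were found in each library, among 15635 genes with a UMI in at least 1 library. Microglia, the resident macrophages of the brain, can run glycolysis or mitochondrial respiration, and activated macrophages are known for a shift towards glycolysis. The Hif1a protein is stabilised when oxygen is low, and HIF-1 is known to raise transcription of most enzymes of glycolysis.

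The samples were brain microglia of hCD33m, hCD33M and control mice, with 1 single-cell library per genotype. hCD33m and hCD33M are the short and long protein isoforms of human CD33, a sialic acid-binding receptor of myeloid cells, and each was expressed as a cDNA placed in the Rosa26 locus behind a CAG promoter and a floxed stop, with GFP on the same transcript. Cx3cr1Cre removed the stop, so that cells with activity of the Cx3cr1 promoter carried the transgene, and the hCD33m line came from a single embryonic stem cell clone. The labels call the control library wild type and do not say whether those mice carried Cre. All mice were on a C57BL/6 background and 8 weeks old by the labels, and each library pooled 2 mice by the methods. Brains of all 3 genotypes were perfused and homogenised ice-cold with 2 blockers of transcription, actinomycin D and triptolide, and with the translation blocker anisomycin. Cells were then sorted as CD11b+ CD45(low) Cx3cr1+, a gate that can set how many other macrophages and monocytes were caught. The study asked how the isoforms alter microglia.

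With 1 library per genotype there was no test across samples, no p is given, and a difference between genotypes cannot be told apart from one between 2 isolations. Levels are in CPM, counts per 1000000: all unique molecular identifiers (UMIs) that a gene had in the cells of a class, divided by the total UMIs of the same cells. The platform counts 1 end of each transcript, so a level needs no division by transcript length, although the efficiency of capture can differ between genes. Intervals in parentheses are exact 95% intervals, Poisson for levels, Clopper-Pearson for shares and conditional binomial for ratios, and cover counting error only. A gene was called by size alone, when 1 of the 2 groups had 20 CPM or more and the groups differed by 1.5-fold or more.

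The hCD33m, hCD33M and control libraries held 6257, 5920 and 6163 barcodes with 40629705, 36413491 and 32272657 UMIs. Filters on genes and mitochondrial UMIs kept 6068, 5710 and 5891 cells, of which 5223, 4508 and 4580 were microglia-like by P2ry12, Tmem119 and other fixed markers. The largest microglia-like cluster was cluster 0 in the hCD33m library (1554 cells) and cluster 1 in the hCD33M (1048) and control (1077) libraries. Pairs of libraries shared between 4 and 12 barcodes. The hCD33m library is labelled female, but held the Y-linked gene Ddx3y at 94.9 CPM, against 105 CPM in hCD33M and 95.3 CPM in control cells, and 0 UMIs of Xist, so that its cells went against that label. The human transgene was not measured by these mouse counts. In microglia-like cells the summed monocyte markers lay between 9.97 and 11.9 CPM in each library and the summed border macrophage markers between 8.67 and 13.9 CPM.

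The members lie on 7 chromosomes of mm10 and are protein coding, with positions from GENCODE M21. Gpi1 lies on chromosome 7 from 34201330 to 34230336, Aldoa on chromosome 7 from 126795234 to 126800751 and Ldha on chromosome 7 from 46841475 to 46855627. Tpi1 lies on chromosome 6 from 124810586 to 124814296 and Gapdh on the same chromosome from 125161715 to 125166467. Pgk1 lies on chromosome X from 106187100 to 106203699, Pgam1 on chromosome 19 from 41911923 to 41918660 and Eno1 on chromosome 4 from 150236721 to 150248879. Pkm lies on chromosome 9 from 59656368 to 59679375 and Hif1a on chromosome 12 from 73901375 to 73947530. A second gene ID also bears the name Aldoa, so its row may join or leave out reads of that locus. The muscle and embryonic forms of pyruvate kinase come from the same gene with the same end, so Pkm counts do not separate them. Eno1b and Ldhal6b, near-identical copies of Eno1 and Ldha, were at 0.854 CPM or less in microglia-like cells of every library.

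HIF-1 is known to bind short DNA elements with the core ACGTG or the core GCGTG, and the members' promoters were searched for these letters on both strands. RefSeq promoter windows (build GRCm38.p6, 250 bases before to 50 after a start) were found for all 10 members, 16 windows in all. ACGTG occurred in 8 of these 16 windows and in 19.6% of all 32851 windows of the same length. The 8 windows belonged to 7 of the 10 genes, and no share per gene was set over all genes. Of the 8, 2 were overlapping windows of Aldoa that held the same site. At least 1 of these cores occurred in 43.8% of all windows. The 250 bases before the start are given for 4 enzymes, Pgk1 and Ldha because these stretches held ACGTG at more positions than those of the other enzymes, and Gapdh and Eno1 because they differed most between libraries. Each is written 5′ to 3′ on the strand of its gene, and capitals mark every ACGTG or, elsewhere, GCGTG, whichever strand reads it, so that the printed letters can be the complements CACGT or else CACGC. A run CACGTG reads as ACGTG on both strands and is also the letters of an E-box, which other factors bind.
Pgk1 (chrX:106186850-106187099, + strand): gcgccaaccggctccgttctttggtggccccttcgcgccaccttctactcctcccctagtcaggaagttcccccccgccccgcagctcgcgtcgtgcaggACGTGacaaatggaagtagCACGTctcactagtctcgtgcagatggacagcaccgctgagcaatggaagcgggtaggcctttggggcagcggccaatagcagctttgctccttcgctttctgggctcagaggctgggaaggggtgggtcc
Ldha (chr7:46845554-46845803, + strand): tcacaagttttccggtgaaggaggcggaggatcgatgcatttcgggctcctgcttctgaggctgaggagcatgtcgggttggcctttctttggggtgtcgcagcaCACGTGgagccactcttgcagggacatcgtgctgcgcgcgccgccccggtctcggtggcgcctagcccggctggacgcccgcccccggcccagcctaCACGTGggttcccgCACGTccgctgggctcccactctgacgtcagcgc
Gapdh (chr6:125165774-125166023, - strand): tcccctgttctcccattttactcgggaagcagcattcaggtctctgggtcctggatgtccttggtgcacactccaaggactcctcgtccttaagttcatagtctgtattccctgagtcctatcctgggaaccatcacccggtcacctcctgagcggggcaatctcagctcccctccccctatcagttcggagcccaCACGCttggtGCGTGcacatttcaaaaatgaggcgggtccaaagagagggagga
Eno1 (chr4:150236458-150236707, + strand): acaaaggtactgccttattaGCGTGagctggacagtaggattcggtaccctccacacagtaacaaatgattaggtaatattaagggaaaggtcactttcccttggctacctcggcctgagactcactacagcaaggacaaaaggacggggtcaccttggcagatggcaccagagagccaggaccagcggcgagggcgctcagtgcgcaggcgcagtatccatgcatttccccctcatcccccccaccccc
The Ldha stretch held 3 runs of capitals, of which 2 were CACGTG, and the Pgk1 stretch held 2 runs. The printed Gapdh stretch held GCGTG once on each strand and the printed Eno1 stretch held it once, and neither stretch held ACGTG. The 300-base window of Gapdh held ACGTG once, in the 50 bases after the start. The stretches shown are from the first of 3 windows of Eno1 and of 2 windows of Ldha, and the other windows of these genes held no ACGTG. A match of letters is a description and not a measured site.

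In microglia-like cells Gapdh, which oxidises glyceraldehyde phosphate, was the most abundant of the 10, at 590 CPM in hCD33m (582 to 598), 522 CPM in hCD33M (514 to 530) and at 551 CPM in control cells (543 to 560). It ranked 225 of 14819 genes with a UMI in the hCD33m library. Gapdh alone gave 39.6%, 36.5% and 36.7% of the UMIs of the 9 enzymes. Aldoa, the aldolase that splits the sugar into trioses, came next at 212, 216 and 219 CPM in hCD33m, hCD33M and control cells. At the other end Pgk1, which makes the first ATP of the route, was at 47.7 CPM in hCD33m, 49.6 CPM in hCD33M and 47.5 CPM in control cells, with intervals that overlapped. The order of levels was thus headed by Gapdh and Aldoa and closed by Pgk1 in each library, while the 7 members between them lay within 80.3 to 145 CPM.

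Several of these 7 did not differ from their neighbours in that order beyond counting error. Pkm, pyruvate kinase, was at 136 CPM in hCD33m, 129 CPM in hCD33M and 139 CPM in control cells. Ldha, which reduces pyruvate to lactate, had 121 CPM in hCD33m, 128 CPM in hCD33M and 124 CPM in control cells. In hCD33M cells the interval of Pkm (125 to 133) thus included the level of Ldha. Pgam1, phosphoglycerate mutase, was at 102, 104 and 101 CPM, and its libraries differed by less than counting error. Tpi1, triose phosphate isomerase, was at 84.0, 91.6 and 92.1 CPM, with hCD33m below both others. Gpi1, which turns glucose phosphate into fructose phosphate, was at 80.3, 82.5 and 82.5 CPM. Hif1a was at 126 CPM in hCD33m (122 to 129), 119 CPM in hCD33M (115 to 123) and at 133 CPM in control cells (129 to 137).

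**Figure D1:**
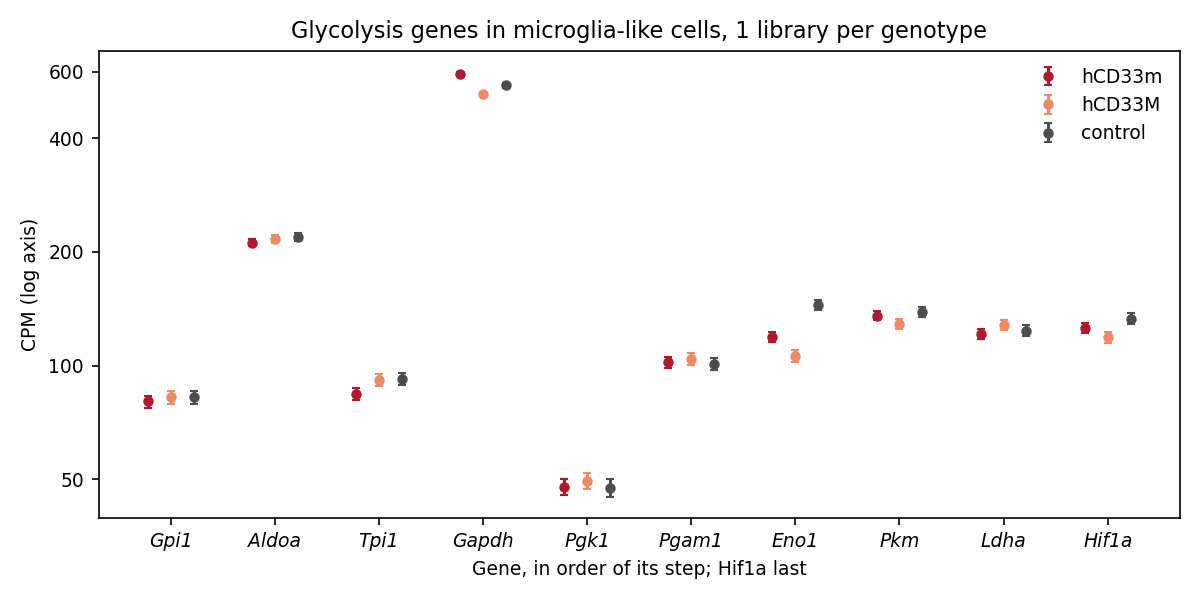
Level in CPM (vertical log axis) of each glycolysis gene (horizontal axis), for the microglia-like cells of hCD33m, hCD33M and control mice. Points are levels of 1 library each with exact 95% Poisson intervals. Gapdh stands near 590, 522 and 551 CPM and Pgk1 near 47.7, 49.6 and 47.5 CPM, and only for Eno1 is the control point clearly above both others.

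Between genotypes the 9 enzymes summed were at nearly the same level. Of this sum Gapdh gave 39.6% in hCD33m, 36.5% in hCD33M and 36.7% in control cells. The 9 enzymes together were at 1491 CPM in hCD33m, 1428 CPM in hCD33M and 1500 CPM in control microglia-like cells. The log2 ratio of this sum was -0.01 for hCD33m over control (-0.03 to 0.01), -0.07 for hCD33M over control (-0.09 to -0.05) and 0.06 for hCD33m over hCD33M (0.04 to 0.08). Over control, Gapdh alone had a log2 ratio of 0.10 in hCD33m and -0.08 in hCD33M. The median over the 9 enzymes was -0.03 and -0.01. None of the 10 members was called at 1.5-fold in hCD33m over control, where 1.18% of 6786 genes were called, in hCD33M over control, where 0.929% of 6781 were, or in hCD33m over hCD33M, where 0.636% of 6763 were. The median log2 ratio of the members was -0.03 for hCD33m over control, with -0.13 to 0.02 as the interval over members, beside 0.01 over all genes. It was -0.01 for hCD33M over control, with -0.17 to 0.05 over members, beside 0.01. For hCD33m over hCD33M it was -0.03, with -0.08 to 0.17 over members, beside 0.00. These intervals span ranked values of the chosen members, which are not replicates, and do not measure the spread of a genotype effect. Control cells enter both comparisons against control, so these are not independent of each other.

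Eno1, the enolase that makes phosphoenolpyruvate, was the member that differed most. It was at 119 CPM in hCD33m (115 to 123), 106 CPM in hCD33M (102 to 110) and at 145 CPM in control microglia-like cells (141 to 149), so that the 3 intervals did not overlap. Its log2 ratio was -0.28 for hCD33m over control (-0.35 to -0.22), -0.45 for hCD33M over control (-0.52 to -0.38) and 0.17 for hCD33m over hCD33M (0.10 to 0.23). At a looser limit, a ratio of 5 to 4 in either direction, Eno1 in hCD33M over control was the only call among the 10 members between libraries of microglia-like cells. At that limit 6.35% of all genes were called in hCD33m over control, 4.32% in hCD33M over control and 3.28% in hCD33m over hCD33M. Of all genes tested, 0.870% had a lower ratio than Eno1 for hCD33M over control and 3.79% for hCD33m over control. Microglia-like cells held 1.46% mitochondrial UMIs in hCD33m, 1.44% in hCD33M and 1.70% in the control library, and Malat1, a nuclear noncoding RNA, at 47820, 50410 and 45139 CPM, and their part in the result was not tested.

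Eno1 was below control in 6 of 6 bands of UMIs per cell for both hCD33m and hCD33M, by its interval in 3 and 5 of them. It was below control in 9 of 9 microglia-like clusters for both, by its interval in 6 clusters for hCD33m and 8 for hCD33M. Bands and clusters, here and for Gapdh below, split the same cells of 1 library per genotype and are not replicates. In border associated macrophage-like cells Eno1 was at 88.9 CPM in hCD33m, 83.5 CPM in hCD33M and 147 CPM in control cells, from 120, 54 and 99 UMIs, with log2 ratios over control of -0.72 (-1.12 to -0.32) in hCD33m and -0.81 (-1.32 to -0.32) in hCD33M. Both ratios were past 1.5-fold, which 14.4% of all genes also were for hCD33m over control and 20.8% for hCD33M over control. In monocyte-like cells it was at 264, 265 and 334 CPM, and there the intervals of both ratios over control included no difference.

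Gapdh went the other way in the hCD33m library. It was higher in hCD33m than in control cells by a log2 ratio of 0.10 (0.07 to 0.13) and than in hCD33M cells by 0.18 (0.15 to 0.21), and lower in hCD33M than in control cells (-0.08, -0.11 to -0.05). Gapdh was above control in hCD33m cells in 6 of 6 depth bands and 9 of 9 clusters, by its interval in 4 of each. Of all genes, 74.1% had a lower ratio than Gapdh for hCD33m over control and 93.1% for hCD33m over hCD33M. Under 11 alternatives of processing, the log2 ratio of Gapdh for hCD33m over control ranged from 0.05 to 0.18. For hCD33m over hCD33M it ranged from 0.14 to 0.26. In each comparison 2 alternatives lay outside the interval, so the direction was kept but the size depends on the setting. Hif1a was lower than in control cells, with a log2 ratio of -0.08 for hCD33m (-0.14 to -0.02) and of -0.17 for hCD33M (-0.23 to -0.10). Tpi1 was lower in hCD33m cells than in control cells by -0.13 (-0.21 to -0.06).

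**Figure D2:**
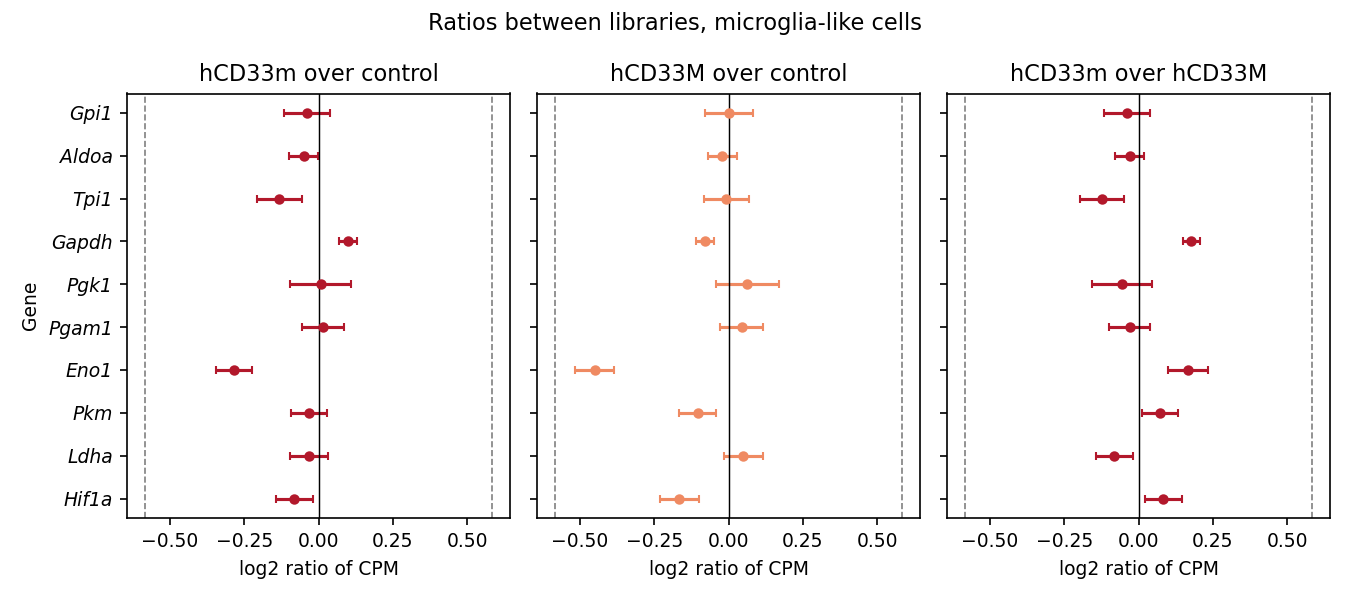
Log2 ratio of CPM (horizontal axis) of each gene (vertical axis) for hCD33m over control, hCD33M over control and hCD33m over hCD33M among microglia-like cells. Points are ratios of 2 libraries with exact 95% intervals, and dashed lines mark 1.5-fold. Eno1 lies lowest in both panels over control, at -0.28 and -0.45, and no point reaches a dashed line.

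Counted per cell, each enzyme was sparse. Microglia-like cells were thinned to 1600 UMIs so that each counted the same number of UMIs, which left out 262 hCD33m, 401 hCD33M and 320 control cells. Gapdh then had a UMI in 56.1% of cells in the hCD33m library (54.7 to 57.5), in 49.9% in the hCD33M library (48.3 to 51.4) and in 51.0% in the control library (49.5 to 52.5), and in 83.1%, 74.0% and 76.5% of unthinned cells. Eno1 was found in 16.8% (15.8 to 17.9), 15.1% (14.0 to 16.3) and 19.5% (18.3 to 20.7), and in 47.0%, 41.1% and 49.4% of unthinned cells. Hif1a was found in 17.1%, 16.1% and 17.3% of the same libraries' cells, and in 46.9%, 43.9% and 45.1% without thinning. A thinned cell held a UMI of 1.80, 1.72 and 1.77 of the 9 enzymes on average, and 13.02%, 17.92% and 16.55% of cells held none. The median number of enzyme UMIs per thinned cell was 2 in each library. Thinning leaves the mix of cells by original depth as it was. Before thinning, 380 hCD33m, 616 hCD33M and 519 control cells had from 1000 to under 2000 UMIs. The part of this mix in these shares was not tested. Every cell type here uses glycolysis, so the share that free RNA alone would give could not be set.

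Levels varied far more with the depth of a cell than with genotype. In microglia-like cells of all libraries together, the 9 enzymes were at 606 CPM under 1000 UMIs per cell and 549 CPM from 1000 to under 2000. They were at 1096 CPM from 2000 to under 4000 UMIs, 1568 CPM from 4000 to under 8000, 1553 CPM from 8000 to under 16000 and 1482 CPM at 16000 and over. The level of the route was thus lowest below 2000 UMIs and nearly level above 4000. Gapdh followed the same course, at 175, 146, 383, 601, 592 and 557 CPM from the lowest band to the highest. Hif1a moved less, at 73.1, 86.1, 110, 125, 131 and 131 CPM over the same bands. Cells with fewer than 2000 UMIs also held more mitochondrial UMIs (medians of 3.30% and 3.27% against 1.29% to 1.41% at 4000 and over) and more Malat1 (110031 and 109641 CPM against 40323 to 46447), and their part in the result was not tested.

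The direction of the summed enzymes in hCD33m over control turned with the depth of the cells. They were above control in 3 of 6 bands, by the interval in 2, and below it by the interval in 1. From 2000 to under 4000 UMIs they were at 1148 CPM in hCD33m and 1070 CPM in control cells (log2 ratio 0.10, 0.03 to 0.17). Gapdh, the largest part of the sum, was there at 427 CPM in hCD33m and 351 CPM in control cells (0.28, 0.16 to 0.40). In hCD33M cells the summed enzymes were below control in 6 of 6 bands, by the interval in 4. From 4000 to under 8000 UMIs the summed enzymes were at 1555 CPM in hCD33m, 1535 CPM in hCD33M and 1610 CPM in control cells, with a log2 ratio of -0.05 (-0.08 to -0.02) for hCD33m over control. At 16000 and over they were at 1486, 1458 and 1511 CPM. Eno1 in these top-band cells was at 117 CPM in hCD33m, 102 CPM in hCD33M and 135 CPM in control cells, with log2 ratios over control of -0.21 (-0.34 to -0.08) for hCD33m and -0.40 (-0.54 to -0.27) for hCD33M. Below 2000 UMIs a library held at most 945036 UMIs per band, and hCD33m was the highest for the summed enzymes, at 649 CPM against 481 CPM in hCD33M and 556 CPM in control cells from 1000 to under 2000 (log2 ratio of hCD33m over control 0.22, 0.02 to 0.42).

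**Figure D3:**
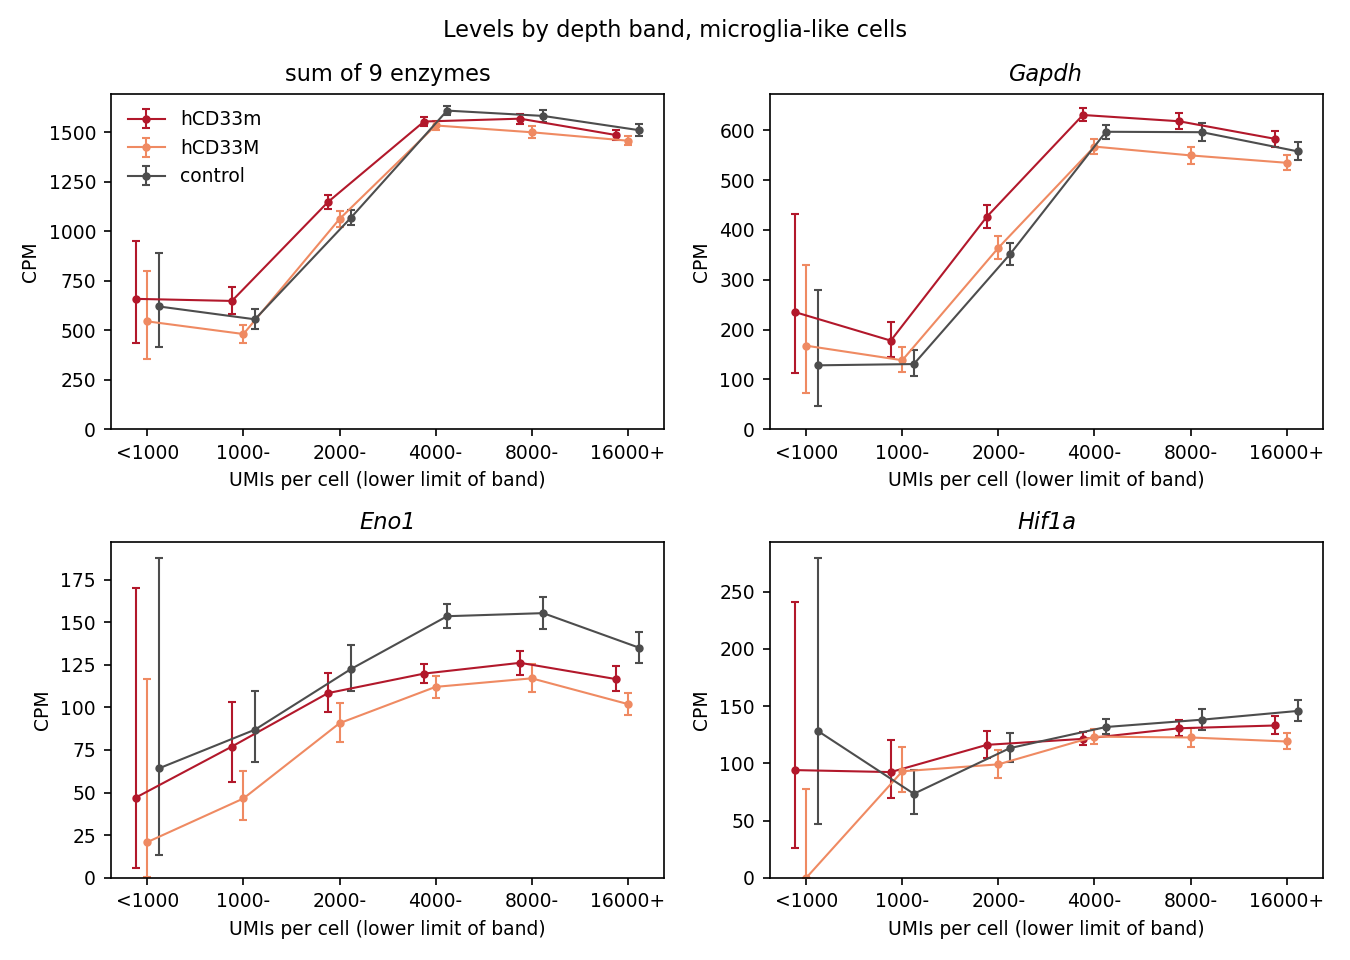
CPM (vertical axes) of the 9 enzymes summed, Gapdh, Eno1 and Hif1a by band of UMIs per cell (horizontal axes, low to high) for microglia-like cells of hCD33m, hCD33M and control mice. Points have exact 95% Poisson intervals. The sum is near 606 CPM in the lowest band and near 1568 CPM from 4000 UMIs, and the control line of Eno1 lies above the others in each band.

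The 2 unnamed clusters, with 3046 cells of few UMIs, showed the same drop. Their summed enzymes were at 645 CPM in hCD33m, 628 CPM in hCD33M and 602 CPM in control cells, 0.42-fold of the level in microglia-like cells. Of the 10 members, 8 were called lower than in microglia-like cells, where 28.1% of 7034 genes were. Gapdh was at 0.31-fold, Pgam1 at 0.32-fold and Pgk1 at 0.38-fold, whereas Ldha was at 0.69-fold and Hif1a at 0.77-fold. Median depth in these clusters was 849, 874 and 866.5 UMIs per cell in hCD33m, hCD33M and control cells.

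Monocyte-like cells, which held Plac8 at 2036 CPM and Ly6c2 at 628 CPM, carried the most transcripts of the route among the cell types. They numbered 40 in the hCD33m, 22 in the hCD33M and 19 in the control library, with 333926, 264234 and 212309 UMIs. Their summed enzymes were at 2501 CPM in hCD33m, 2479 CPM in hCD33M and 2939 CPM in control cells, each above microglia-like cells of the same library by 1.68-, 1.74- and 1.96-fold. Over the 3 libraries together the sum was 1.77-fold higher, with a log2 ratio of 0.82 (0.76 to 0.89). Median depth was 9290 UMIs per cell in monocyte-like and 5039 in microglia-like cells, and its part in this difference was not tested. Clusters were formed without the members and without listed genes of glucose entry and priming, other isozymes, oxygen sensing and targets of HIF-1. Other genes of the pathway, and genes that vary with the members, may have taken part. The comparison thus describes these cells and is no test.

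The size of this difference varied among the enzymes. Over the 3 libraries together 5 members were called higher in monocyte-like than in microglia-like cells, where 17.6% of 7208 genes were, and 1 was called lower, where 38% were. Gpi1 was 3.05-fold higher (log2 1.61, 1.40 to 1.81), at 237 CPM in hCD33m, 204 CPM in hCD33M and 325 CPM in control monocyte-like cells, against 80.3 to 82.5 CPM in microglia-like cells. Pgk1 was 2.79-fold higher, at 132, 125 and 151 CPM, and Pkm 2.54-fold higher, at 350, 288 and 391 CPM. Eno1 was 2.30-fold higher, and Gapdh, at 871, 814 and 966 CPM, was 1.58-fold higher over the 3 libraries and 1.48-fold higher within the hCD33m library. Below 1.5-fold under the main settings were Ldha at 1.42-fold, Aldoa and Tpi1 at 1.36-fold and Pgam1 at 1.30-fold.

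Hif1a stood apart from the enzymes in monocyte-like cells. It was at 65.9 CPM in hCD33m, 56.8 CPM in hCD33M and 98.9 CPM in control monocyte-like cells, from 22, 15 and 21 UMIs, against 126, 119 and 133 CPM in microglia-like cells. The ratio over the 3 libraries together was 0.57-fold (log2 -0.81, -1.21 to -0.44), and in the control library its interval included no difference. Between libraries of monocyte-like cells, Hif1a in hCD33m (0.67-fold) and in hCD33M (0.57-fold) and Gpi1 in hCD33M (0.63-fold) were past 1.5-fold below control, beside 39% of all genes called in hCD33m over control and 44.8% in hCD33M over control. The intervals of both Hif1a ratios included no difference. The cells with the highest summed enzymes among the 3 cell types thus had the lowest level of Hif1a. Microglial transcripts were not absent from monocyte-like cells, which held P2ry12 at 733 CPM against 3488 CPM in microglia-like cells.

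After thinning to 1600 UMIs a monocyte-like cell held a UMI of 3.15 enzymes in hCD33m, 3.33 in hCD33M and 3.37 in control cells. A Gapdh UMI was found in 65.0% of 40 hCD33m, 71.4% of 21 hCD33M and 73.7% of 19 control monocyte-like cells. An Eno1 UMI was found in 40.0% (24.9 to 56.7), 38.1% (18.1 to 61.6) and 47.4% (24.4 to 71.1), intervals that overlapped widely between the libraries.

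Border associated macrophage-like cells, which held Mrc1 at 990 CPM, were near microglia-like cells in all members but Gpi1. They numbered 115 in the hCD33m, 47 in the hCD33M and 65 in the control library. The summed enzymes were at 1367 CPM in hCD33m, 1267 CPM in hCD33M and 1493 CPM in control cells, 0.93-fold of microglia-like cells over the 3 libraries together (log2 -0.10, -0.15 to -0.05). Median depth was 8356 UMIs per cell in border and 5039 in microglia-like cells, and its part in these levels was not tested. No member was called over the 3 libraries together under the main settings, where 6.92% of 6933 genes were. Gpi1 was nearest to the limit at 1.46-fold (log2 0.55, 0.38 to 0.71), at 114 CPM in hCD33m, 111 CPM in hCD33M and 138 CPM in control border cells. It was above microglia-like cells by its interval in each of the 3 libraries, at 1.42-fold in hCD33m, 1.35-fold in hCD33M and 1.67-fold in control cells, so that it was past the limit within the control library. Between libraries of border cells, beside Eno1, Pgk1 in hCD33M was past 1.5-fold below control (0.64-fold, log2 -0.65, -1.49 to 0.15). The other 8 enzymes lay between 0.83- and 0.97-fold, and Hif1a at 0.85-fold was at 96.3, 116 and 120 CPM. After thinning, Eno1 had a UMI in 9.01% of 111 hCD33m, 19.6% of 46 hCD33M and 19.0% of 63 control border cells, shares whose order went against the CPM for hCD33M and from which no order is read. P2ry12, a microglial gene, was at 2248 CPM in border cells, and its part in these levels was not tested.

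**Figure D4:**
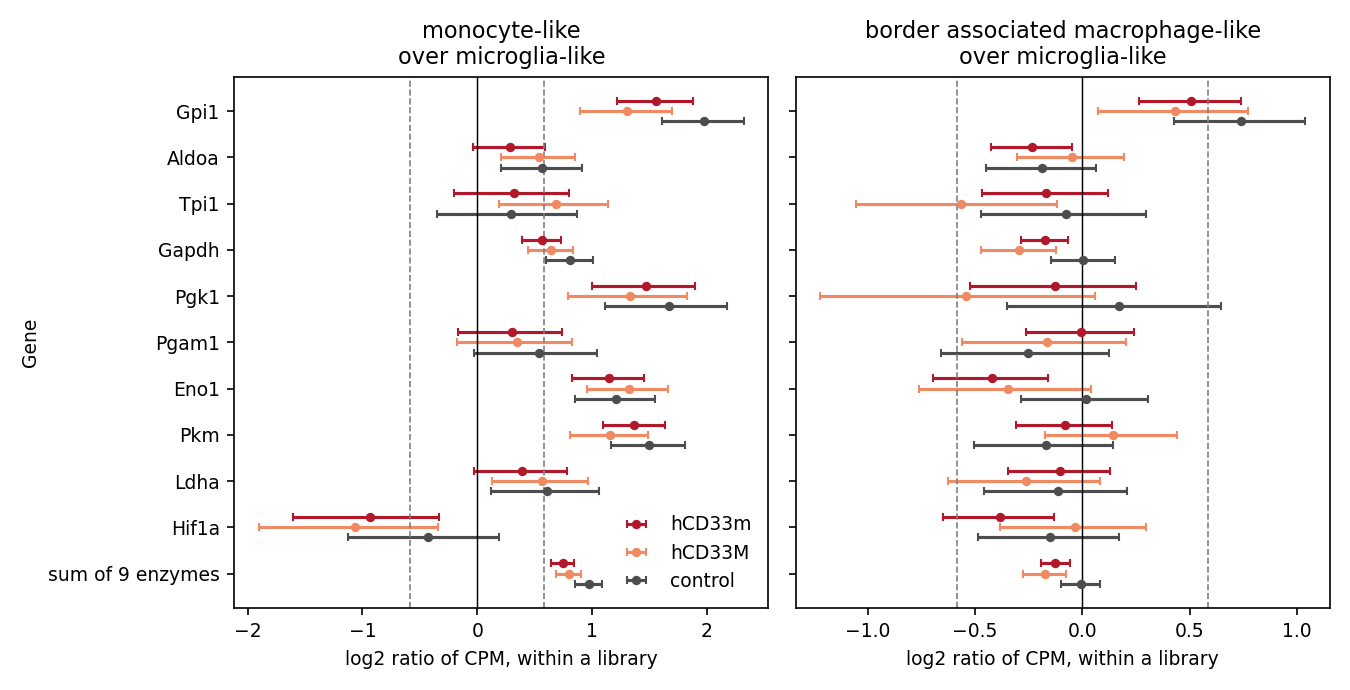
Log2 ratio of CPM (horizontal axes) of each gene and of the 9 enzymes summed (vertical axis) for monocyte-like and border associated macrophage-like over microglia-like cells, within the hCD33m, hCD33M and control libraries. Bars are exact 95% intervals and dashed lines mark 1.5-fold. In monocyte-like cells Gpi1, Pgk1, Eno1 and Pkm lie above 1.5-fold in all 3 libraries and Hif1a lies below 0, and in border cells only Gpi1 lies to the right in all 3.

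Among the 9 microglia-like clusters, cluster 11 had the highest level of each of the 10 members over the 3 libraries together. Its 128 cells (88 hCD33m, 16 hCD33M and 24 control) were led by Mmp12, a matrix metalloproteinase, and by the chemokine genes Ccl4 and Ccl3. Summed enzymes in this cluster were at 2566 CPM in hCD33m, 2901 CPM in hCD33M and 2924 CPM in control cells, a level like that of monocyte-like cells. Unlike those cells it also had the most Hif1a, at 341 CPM in hCD33m (292 to 396), 314 CPM in hCD33M (210 to 451) and at 341 CPM in control cells (246 to 461). The median depth of cluster 11 was 5319.5 UMIs per cell, against 4884.5 to 5178 in microglia-like cells of the 3 libraries. The cluster was defined from gene expression, and genes that vary with the members may have taken part. Its name rests on 3 microglia markers. At resolution 0.4 a cluster of 135 cells, also led by Mmp12 and Ccl4, met 1 of these markers and was given no name.

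The other clusters ranged from 476 to 1715 CPM. Cluster 1, led by Crybb1 and with Aldoa among its 10 leading genes, was at 1715 CPM for the summed enzymes over the 3 libraries, and cluster 7, led by Lpl and Emp3 among others, at 1581 CPM. Cluster 9, led by the interferon-induced genes Rsad2 and Cxcl10, was at 1495 CPM and cluster 8, led by Cst7 and Vcam1, at 1438 CPM. Cluster 5 was at 1343 CPM. Cluster 2, whose cells held a median of 1765.5 UMIs, was lowest at 476 CPM. Hif1a lay between 87.6 and 134 CPM in these clusters and was lowest in cluster 2.

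**Figure D5:**
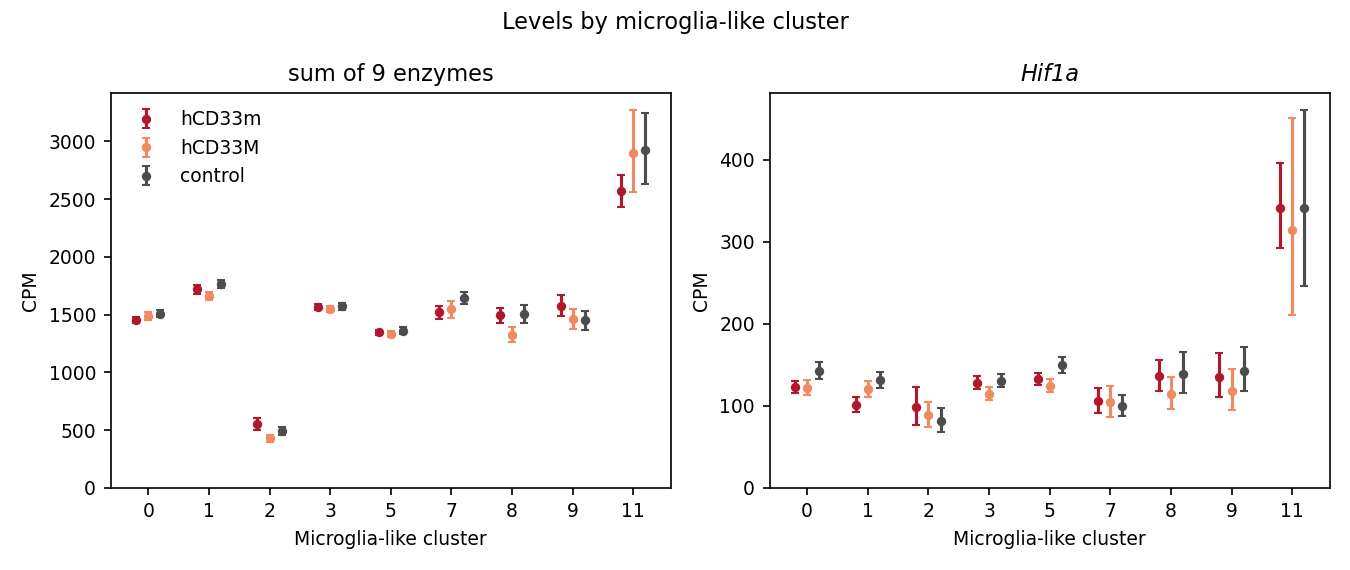
CPM (vertical axes) of the 9 enzymes summed and of Hif1a in each microglia-like cluster (horizontal axes, by cluster number) of the hCD33m, hCD33M and control libraries, with exact 95% Poisson intervals. Cluster 11 is highest in both panels, near 2669 CPM for the enzymes and 338 CPM for Hif1a over the 3 libraries, and cluster 2 is lowest for the enzymes.

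The genes around the members in the pathway showed few differences of 1.5-fold or more between genotypes. In lists of glucose entry and priming (8 measured), other isozymes (1), lactate and pyruvate handling (11), pentose phosphate (7), tricarboxylic acid cycle (16), oxygen sensing (5) and other targets of HIF-1 (6), no gene was called in hCD33m over control, where 1.18% of all genes were, or in hCD33M over control, where 0.929% were. Hk2, a hexokinase, which phosphorylates glucose on entry, came nearest, at 442 CPM in hCD33m, 446 CPM in hCD33M and 319 CPM in control cells. Its log2 ratio over control was 0.47 (0.43 to 0.51) in hCD33m and 0.48 (0.45 to 0.52) in hCD33M. Both ratios of Hk2 were past the looser limit of 5 to 4. So were 6.35% of all genes in hCD33m over control and 4.32% in hCD33M over control. The other listed genes were not counted at that limit. Slc2a5, a fructose transporter, was at 369, 422 and 412 CPM, and Ldhb, the other lactate dehydrogenase subunit, at 479, 392 and 423 CPM. P4ha1, a collagen prolyl hydroxylase subunit and target of HIF-1, was the only listed gene called in hCD33m over hCD33M, where 0.636% of all genes were, with 274 CPM in hCD33m, 424 CPM in hCD33M and 317 CPM in control cells. Of the best measured others, Mpc1 of the mitochondrial pyruvate carrier was at 237, 222 and 253 CPM and Taldo1, transaldolase, at 165, 151 and 154 CPM. Bnip3l, a mitophagy receptor and target of HIF-1, was at 215, 202 and 198 CPM.

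Monocyte-like and microglia-like cells differed in which genes of the route they held. The counts of these lists stand beside 17.6% of all genes called higher and 38% called lower in monocyte-like cells. Genes of pentose phosphate, lactate and pyruvate handling and the tricarboxylic acid cycle were not left out of the clustering. They may have helped to form the clusters compared here. Of 7 pentose phosphate genes 5 were called higher in monocyte-like cells and none lower, with a median log2 ratio of 1.01. They were Taldo1 at 592 against 157 CPM, Tkt, transketolase, at 301 against 100 CPM, G6pdx at 93.8 against 32.0 CPM, Pgd at 162 against 80.1 CPM and Pgls at 199 against 116 CPM. Of 9 genes of glucose entry and priming 1 was higher and 6 were lower, with a median of -0.93. The higher one was Pfkp, platelet phosphofructokinase, at 29.6 against 0.695 CPM. Pfkp reached the minimum of 20 CPM only in monocyte-like cells, so it could only be called higher. Slc2a5 was lower at 90.1 against 399 CPM, Slc2a8 at 13.6 against 32.8 CPM and Hk2 at 189 against 406 CPM. Isozymes were also split, with Ldhb at 110 against 434 CPM and Eno3 at 66.6 against 14.8 CPM. Eno3 too reached the minimum only in monocyte-like cells.

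Of 11 genes of lactate and pyruvate handling, Pdha1 was called higher in monocyte-like cells, at 49.4 against 26.1 CPM, and 4 were lower, among them Slc16a7, a lactate transporter, at 13.6 against 40.9 CPM and Pdk1, a pyruvate dehydrogenase kinase, at 39.5 against 109 CPM. Among 8 other targets of HIF-1, Anxa2 at 459 against 1.55 CPM and Ndrg1 at 29.6 against 0.0104 CPM were higher, the last from a single microglial UMI (log2 ratio 11.48, 8.86 to 16.84), and 3 were lower, led by P4ha1 at 97.5 against 335 CPM and Bnip3 at 13.6 against 32.0 CPM. Anxa2 and Ndrg1 reached the minimum of 20 CPM only in monocyte-like cells, so they could only be called higher. Of 16 genes of the tricarboxylic acid cycle 2 were higher and 2 lower, with a median of -0.04, and of 5 genes of oxygen sensing Arnt, the partner of Hif1a, and Vhl, which targets it for degradation, were lower. The 4 of 11, 3 of 8 and 2 of 5 genes called lower in these lists are shares near that of all genes, and say nothing particular about the lists. In border cells Slc2a5 (263 against 399 CPM) and Vhl (31.5 against 50.3 CPM) were the only genes of these lists that were called, both lower, beside 6.92% of all genes called in either direction.

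Over 32 sums of cells, each of 1 cluster in 1 library, the enzymes varied together. The Pearson correlation of log2 CPM with the other enzymes summed ran from 0.71 for Ldha to 0.97 for Gapdh, and was 0.60 for Hif1a. Genes most like the summed enzymes among 3430 compared were Psmb6, a proteasome subunit (0.989), Vdac2, a channel of the outer mitochondrial membrane (0.983), Snrpb, a splicing protein (0.982), Eif5a, a translation factor (0.981), and Cfl1, which severs actin (0.981). Those most like Hif1a were Azin1 (0.846), Eif4a1 (0.816), Plek (0.807), Alas1 (0.798) and Rsl1d1 (0.791). The sums share libraries and include clusters of few UMIs, so these values carry no p.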

How the data were processed

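Single cells of brains from hCD33m, hCD33M and control mice were sequenced with a 3′ kit of 10x Genomics, 1 library per genotype. The authors aligned reads to mm10 with Cell Ranger and deposited raw UMI counts per gene and cell, which had passed a Seurat import that keeps genes seen in 3 or more cells and cells with over 200 genes. A count of 0 may therefore be a gene that this filter removed, and sets no upper limit. The annotation release is not given in the sources used here.

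Cells with at most 8000 genes and at most 10% mitochondrial UMIs were kept. All kept cells entered 1 clustering, made in scanpy 1.11.5 and leidenalg 0.10.2 (2000 variable genes, 15 principal components, 20 neighbours, resolution 0.8). It left out 58 genes of glycolysis and HIF-1, 38 immediate early, 7 sex-linked and all mitochondrially encoded genes. Genes of lactate and pyruvate handling, pentose phosphate and the tricarboxylic acid cycle were not left out. A cluster was named from at least 3 markers, each with 20 CPM and 50% of its highest cluster level. No name was given if another class had more markers among the 10 leading genes, or if none of its own was there and the median depth was under 33.3% of the library's. Cells with over 2% of UMIs from neutrophil or red cell markers (4 cells) were kept apart, which was decided after seeing the data. No doublet caller was used, so doublets were removed only by the limit on genes. Members, lists and markers were chosen with earlier results of these data known.

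Genes named are the 10 members, listed genes past 1.5-fold (at most 4 per list, largest first), the 2 highest of a list, the 5 most like the summed enzymes and like Hif1a, and cell type markers. Sums of cells for likeness had at least 50 cells and 200000 UMIs. Leading genes of clusters are the first of those that define each. The ratios and the size rule were tested on simulated data. Alternatives covered other cell filters, totals, clusterings, depth standardisation and TMM scaling (edgeR 4.0.16). Python 3.11.15, scipy 1.17.1 and matplotlib 3.10.9 were used, and promoter sequences are from RefSeq.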

Additional observations from a re-analysis of the deposited data

Results flagged for a closer look

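In 4 results the same comparison went in opposite directions in 2 microglia-like clusters, each by its counting interval, and none of these differences between clusters was tested. They were looked for among 11 quantities, 3 comparisons and 9 clusters, so some would arise by counting error alone. Pgam1 was at 92.9 CPM in hCD33m and 79.7 CPM in control cells of cluster 5 (log2 ratio 0.22), and at 139 and 227 CPM in cluster 11 (-0.71). Pkm was at 82.0 CPM in hCD33m and 48.6 CPM in control cells of cluster 2, whose cells held few UMIs (0.76), and at 119 and 149 CPM in cluster 7 (-0.33). Hif1a of cluster 3 was at 128 CPM in hCD33m, against 115 CPM in hCD33M (0.16), and at 101 and 121 CPM in cluster 1 (-0.25). The 9 enzymes summed were at 1576 CPM in hCD33m and 1449 CPM in control cells of cluster 9 (0.12), and at 2566 and 2924 CPM in cluster 11 (-0.19), where the control library held 24 cells.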

How the results depend on the processing

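No paired analysis was possible because each genotype had 1 library. The count of members past 1.5-fold stayed at 0 in each comparison between libraries of microglia-like cells under 13 of the 14 alternatives for hCD33M over control and all 14 for the others, and was 1 (Eno1) for hCD33M over control at the looser limit of 5 to 4. The median log2 ratio of the members ranged from -0.07 to -0.01 for hCD33m over control, from -0.04 to -0.01 for hCD33M over control and from -0.07 to 0.03 for hCD33m over hCD33M. Of 30 ratios of members between libraries, 19 kept their sign under all 11 alternatives. Eno1 ranged from -0.31 to -0.26 for hCD33m and from -0.51 to -0.43 for hCD33M over control. The summed enzymes of monocyte-like over microglia-like cells, at a log2 ratio of 0.82, were at 1.00 with mitochondrial, ribosomal protein and Malat1 UMIs left out of the total and at 1.02 as a mean of CPM over cells, and the cause was not tested. Leaving out cluster 11 and leaving in the cells of neutrophil or red cell profile were chosen after seeing the data, and moved none of these values beyond its interval. Gpi1 in border over microglia-like cells, at a log2 ratio of 0.55, ranged from 0.52 to 0.77 over 6 alternatives. It was thus past 1.5-fold at the highest, so the absence of calls there depends on the setting. In monocyte-like over microglia-like cells, the log2 ratios of Ldha, Aldoa and Tpi1 reached 0.69, 0.63 and 0.62 over 6 alternatives, past 1.5-fold. That of Pgam1 reached 0.56 and stayed below it. The count of 5 members called higher there thus depends on the setting. Depth limits single cells to about 2 enzyme UMIs at 1600 UMIs, and the 19 to 40 monocyte-like cells per library limit their members to between 15 and 291 UMIs.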
